A study of Mus musculus with 6 samples.

Results

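The 10 genes described here belong to the machinery that writes, copies and removes DNA methylation. They are the DNA methyltransferases Dnmt1, Dnmt3a and Dnmt3b, the methylation-copying partners Uhrf1 and Hells, and Uhrf2, which is related to Uhrf1. The oxidising enzymes Tet1, Tet2 and Tet3 and the glycosylase Tdg complete the family. The 10 genes were chosen by symbol, not by any measured value, and all were found among the 25033 gene symbols listed. All 10 also passed the filter on low counts, which left 12978 genes. The data came from RNA sequencing of GFP+ cells labelled as haematopoietic stem cells (HSCs, the marrow cells that renew all blood lineages), sorted from bone marrow of C57BL/6J mice aged 6 months. The mice had been given HSCs treated beforehand. Those behind 3 libraries got a control RNA. Those behind the other 3 got the miR-31-5p inhibitor, which blocks a microRNA, a short RNA that silences transcripts pairing with its seed. The labels do not say whether recipients were pooled or whether libraries of a group came from separate mice, so the p-values reflect spread between libraries that may be technical.

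In a dividing cell, DNMT1 copies the methylation pattern of the parental strand onto the new strand at the replication fork. UHRF1 recognises DNA methylated on the parental strand alone and brings DNMT1 there, and HELLS, a chromatin remodeller, opens packed chromatin for the same process. DNMT3A and DNMT3B add methylation at sites that had none, while TET enzymes oxidise methylated cytosine and TDG cuts out the oxidised bases. In mouse marrow, HSCs fail without Dnmt1 or Uhrf1, and loss of Dnmt3a or Tet2 lets HSCs expand, so the family is well known in stem cell and leukaemia research.

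Dnmt1, Uhrf1 and Hells, which act in copying methylation, were lower in the inhibitor group, and Uhrf2 was higher. Among the other genes only Dnmt3b passed the test without a correction for transcript length or GC content. Dnmt1, Uhrf1, Hells and Dnmt3b fell 1.18- to 1.39-fold, and Uhrf2, the paralogue of Uhrf1, rose 1.23-fold. Dnmt3a, Tet1, Tet2, Tet3 and Tdg did not pass 0.05 (quasi-likelihood test of edgeR, p adjusted by Benjamini-Hochberg over all tested genes). Thus 4 of the 10 were lower and 1 higher, where 20.1% of all tested genes were lower and 20.4% higher by the same rule (40.5% in either direction). The 5 of 10 called in either direction are near that share. At 0.01, where 12.2% of all genes were lower and 14.3% higher (26.5% in all), 3 of the 10 were lower and 1 higher. DESeq2 also gave 4 lower and 1 higher, against 15.7% and 16.7% of 14793 genes with an adjusted p (32.4% in all), as did limma-voom, against 19.6% and 20.5% (40.1% in all). With the planned correction for GC content and transcript length, however, 9 of the 10 were lower and 1 higher, against 24.7% and 21.4% of all genes (46.1% in all), as Dnmt3a, Tet1, Tet2, Tet3 and Tdg then passed as lower. The median log2 change of the 10 without it was -0.18, against -0.01 for all tested genes.

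Libraries held 16873188 to 21245861 counts, so 3 counts corresponded to 0.141 to 0.178 CPM, the counts scaled to library size. Control library 1 stood away from control libraries 2 and 3 on principal component 2 (9.48% of the variance), and component 1 (70.8%) parted the groups. Without it, 4 of the 10 genes were still lower and 1 higher, against 21.5% and 21.6% of all tested genes, with log2 changes of -0.40 for Dnmt1, -0.42 for Uhrf1, -0.31 for Hells, -0.30 for Dnmt3b and 0.24 for Uhrf2. Of the HSC and progenitor markers, Kit (401.9 CPM), Cd34 (362.8) and Flt3 (191.3) were abundant in the control group, whereas the markers that define HSCs were scarce. Mean control and inhibitor levels were 5.22 and 16.9 CPM for Slamf1, 6.95 and 3.66 for Hlf, 1.06 and 7.55 for Procr, 0.64 and 0.38 for Mecom, and 0.10 and 0.41 for Fgd5. The summed level of the 10 HSC and progenitor markers was 985.5 to 1022 CPM in the control and 1048 to 1093 in the inhibitor libraries, and of the 9 tested 3 rose and 2 fell. Markers of other marrow cells moved with the groups: the summed 8 megakaryocyte markers were at 1612 to 1877 CPM in control and 4055 to 4166 in inhibitor libraries, the 7 monocyte markers at 3853 to 3911 and 2298 to 2354, and the 9 neutrophil markers at 6437 to 7295 and 5720 to 5868. All 8 megakaryocyte markers rose, 3 of 7 monocyte markers fell (0 rose, also at an unadjusted p of 0.05, in DESeq2 and in limma-voom), and 5 of 9 neutrophil markers rose while 4 fell. The other sums were 828.9 to 945.3 and 1088 to 1115 CPM for dendritic cells, 671.7 to 727.5 and 700.6 to 773.9 for mast cells and basophils, and 116.0 to 127.0 and 141.2 to 150.7 for stroma and endothelium. Erythroid (5.83 to 7.28 and 12.4 to 15.2), B cell (16.9 to 18.98 and 9.81 to 10.5) and T cell markers (1.18 to 1.96 and 0.65 to 1.05) were low in both groups, and the T cell marker Cd3e was at 0 in the controls. Of those tested, 3 of 8 dendritic cell markers rose and 4 fell, 2 of 5 mast cell and basophil markers rose and 2 fell, 3 of 4 erythroid markers rose, both B cell markers fell, the T cell marker tested did not pass and the stroma and endothelium marker tested rose. In such bulk samples fewer cells of a type and less RNA per cell cannot be told apart, and the part of these markers in the results below was not tested.

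Sequence context of the family is given first, because it names features that the choice of genes did not use. miR-31-5p has 22 bases and is encoded on the minus strand of chromosome 4 (chr4:88910614-88910635, GRCm38.p6, the mm10 assembly). Its seed, bases 2 to 8, is in capitals in the RefSeq sequence:
miR-31-5p: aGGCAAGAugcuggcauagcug

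The seed pairs with TCTTGCC in a transcript. Searched in the longest 3′ UTR that GENCODE M21 gives each gene, these letters occurred in 3 of the 10 genes, Dnmt3b, Uhrf2 and Tet1. They occurred in 12.7% of the 12274 tested genes with an annotated 3′ UTR. That share was not matched for length, which ran from 312 to 7955 bases in the 10 genes, so no enrichment is read from it. Tet1 had 2 matches and the other two genes 1 each, and every match was followed by an A. The first match of each gene is shown in capitals within its flanks because these are the members that the inhibited microRNA could pair with by this rule:
Dnmt3b 3′ UTR: ttccccactcccTCTTGCCaaatga
Uhrf2 3′ UTR: aatgtggtgtttTCTTGCCatgaca
Tet1 3′ UTR: tagaaatcatttTCTTGCCattatg

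The matches began at base 823 of 1331 in Dnmt3b, 637 of 858 in Uhrf2 and 1858 of 7955 in Tet1. The genes holding them did not share a direction: Uhrf2 rose, Dnmt3b fell, and Tet1 had a log2 change of -0.27 that did not pass the test. The other 7 genes held no such letters in any annotated 3′ UTR. A match of letters is a description and not a measured site.

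Promoters were read because Dnmt1, Uhrf1 and Hells fell together with genes of DNA replication. The letters of the binding motif of E2F factors, which drive genes of DNA replication, were sought on both strands as TTTCCCGC, TTTGGCGC, TTTCGCGC and TTTGCCGC, from 250 bases before to 50 after each RefSeq gene start (GRCm38.p6). A match was found for 3 of the 10 genes, Dnmt1, Uhrf1 and Hells, against 4.65% of the 10324 tested genes with a promoter in the table. Dnmt3b, which also fell, had none, so the letters did not divide the genes that fell from the rest. By promoter, 3.87% of the 13074 promoters of tested genes and 2.26% of all 32851 promoters held one. No matches overlapped each other in these windows. The promoters with a match are printed with the motif in capitals, and that of Uhrf2, which had none, beside them:
Uhrf1 (chr17:56304063-56304362, + strand): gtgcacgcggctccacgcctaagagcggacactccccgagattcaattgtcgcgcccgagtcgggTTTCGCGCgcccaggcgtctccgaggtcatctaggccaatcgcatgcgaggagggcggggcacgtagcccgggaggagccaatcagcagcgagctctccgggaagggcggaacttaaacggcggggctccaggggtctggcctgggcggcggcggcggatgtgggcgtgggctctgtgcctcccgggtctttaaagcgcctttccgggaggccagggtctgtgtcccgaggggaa
Dnmt1 (chr9:20952574-20952873, - strand): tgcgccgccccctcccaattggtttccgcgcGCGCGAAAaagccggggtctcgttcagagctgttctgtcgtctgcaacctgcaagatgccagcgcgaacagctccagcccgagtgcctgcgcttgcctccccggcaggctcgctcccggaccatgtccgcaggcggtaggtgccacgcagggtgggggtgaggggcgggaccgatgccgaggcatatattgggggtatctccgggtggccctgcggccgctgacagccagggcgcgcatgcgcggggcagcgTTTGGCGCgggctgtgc
Hells (chr19:38930740-38931039, + strand): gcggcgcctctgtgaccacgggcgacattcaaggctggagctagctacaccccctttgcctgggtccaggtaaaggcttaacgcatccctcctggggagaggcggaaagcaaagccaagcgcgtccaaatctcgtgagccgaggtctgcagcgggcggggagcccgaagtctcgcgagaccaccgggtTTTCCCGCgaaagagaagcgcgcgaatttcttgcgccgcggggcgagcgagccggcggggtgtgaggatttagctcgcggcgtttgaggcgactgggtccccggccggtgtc
Uhrf2 (chr19:30030263-30030562, + strand): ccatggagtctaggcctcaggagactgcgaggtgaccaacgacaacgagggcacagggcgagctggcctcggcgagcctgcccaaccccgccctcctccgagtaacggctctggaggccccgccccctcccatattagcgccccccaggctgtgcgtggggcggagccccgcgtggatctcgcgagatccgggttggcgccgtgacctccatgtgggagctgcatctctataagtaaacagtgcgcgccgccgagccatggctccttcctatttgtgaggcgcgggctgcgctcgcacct

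In Uhrf1 the match (TTTCGCGC) began 185 bases before the gene start, and in Hells (TTTCCCGC) 62 bases before it. Dnmt1 had TTTCGCGC on the opposite strand (read as GCGCGAAA here) 219 bases before its start and TTTGGCGC 33 bases after it. These 4 windows held 33, 33, 34 and 28 CpG dinucleotides for Uhrf1, Dnmt1, Hells and Uhrf2, above the median of 20 over promoters of tested genes. Dnmt1 and Uhrf1 have other annotated starts whose windows held no match. A window without these letters says nothing about binding.

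Levels are compared between genes per length, as the deposited RPKM (reads scaled to transcript length and to library size), and only within a group because the library totals behind RPKM exceeded the summed counts by 0.22 to 8.68%. Dnmt1 had the highest level of the 10 in the control group, 106.7 ± 3.05 RPKM (mean ± SD, n = 3), followed by Uhrf1 with 96.5 ± 7.10. The ranges of these neighbours barely overlapped in the control group, with 104.3 RPKM for Dnmt1 in library 3 and 104.4 for Uhrf1 in library 1. Dnmt1 was above Uhrf1 within each of the 3 libraries. Hells (34.9 ± 3.38) and Tdg (31.5 ± 1.17) came next and overlapped, then Uhrf2 (22.5 ± 2.04) and Tet3 (20.1 ± 0.26), which did not. That last gap was narrow, from 20.6 RPKM for Uhrf2 in library 1 to 20.4 for Tet3 in library 3, and is not read as a separation. Uhrf2 was above Tet3 within each of the 3 libraries.

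Tet2 (13.8 ± 1.31) and Dnmt3a (12.3 ± 0.45) followed with overlapping ranges, and Dnmt3b (8.68 ± 0.49) and Tet1 (0.59 ± 0.07) were lowest. The order of the 10 was the same in the inhibitor group. There, Dnmt1 (84.5 ± 3.53 RPKM) did not overlap Uhrf1 (72.2 ± 2.40), and Uhrf2 (28.7 ± 1.26) overlapped Tdg (30.0 ± 1.57). Hells overlapped Tdg and Tet2 overlapped Dnmt3a, as in the controls. No difference between groups is drawn for Dnmt1 and Uhrf1, because their control overlap rests on libraries whose totals exceeded the summed counts by unlike amounts. Among the TET genes, Tet3 was above Tet2 in all 6 libraries, and Tet1 was at most 0.66 RPKM.

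**Figure D1:**
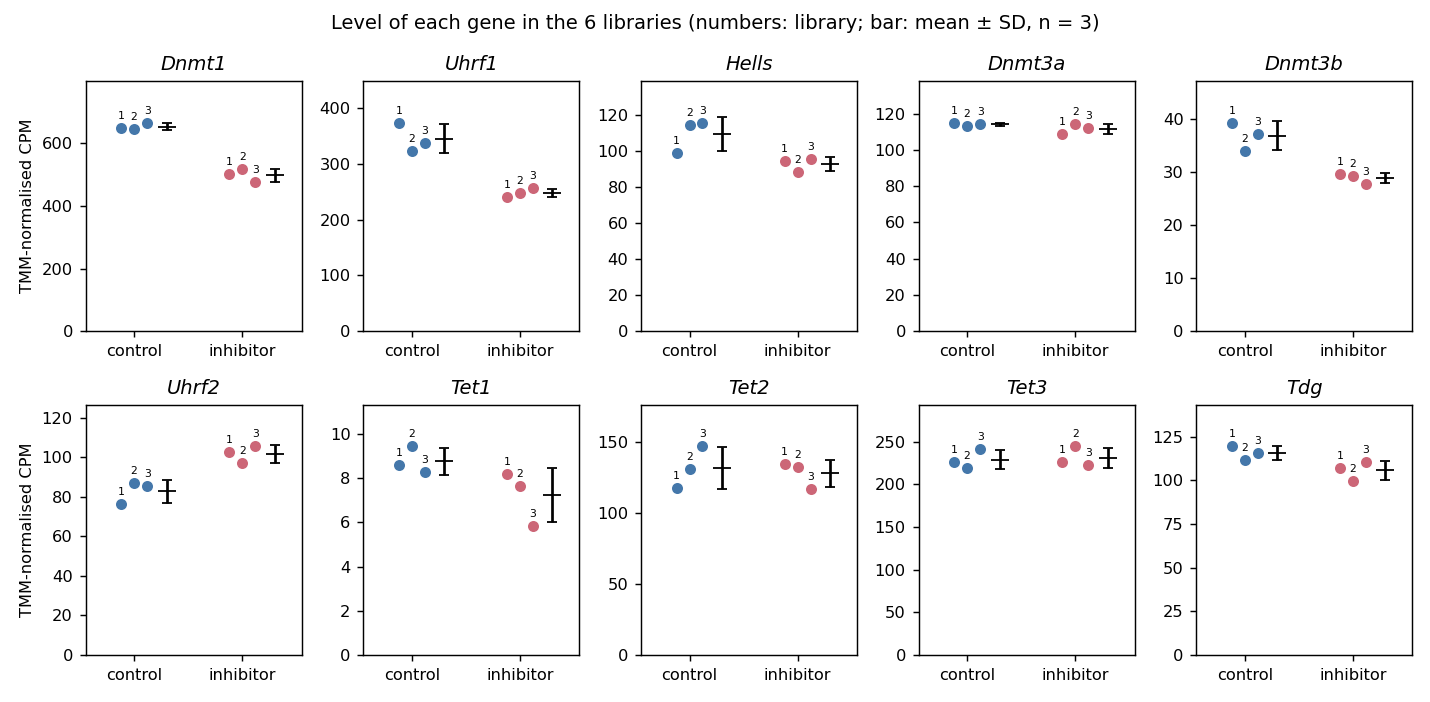
TMM-normalised CPM (y axis, linear, from 0) of each of the 10 genes in the control and inhibitor libraries (x axis); points are libraries with their number, and bars show mean ± SD (n = 3). The inhibitor points lie below all control points for Dnmt1, Uhrf1, Hells, Dnmt3b, Tet1 and Tdg, above them for Uhrf2, and among them for Dnmt3a, Tet2 and Tet3.

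Dnmt1, the maintenance methyltransferase (chromosome 9, 20907206 to 20959888), had control levels of 648.1, 645.4 and 664.9 CPM and inhibitor levels of 500.0, 516.6 and 474.4 CPM, each in the order of the library numbers, as are all values below. CPM include the TMM factors. The control libraries lay close together and the groups did not overlap. Group means were 652.8 ± 10.6 and 497.0 ± 21.3 CPM, with a log2 change of -0.39 ± 0.05 (± SE, adjusted p = 3.43e-05 in edgeR).

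Uhrf1, the reader that brings DNMT1 to newly replicated DNA (chromosome 17, 56303337 to 56323486), showed the largest change of the 10 in size. This rank did not hold with GC content and length corrected, where Tet1 was at -0.54 and Uhrf1 at -0.44. Levels of Uhrf1 were 373.3, 323.5 and 336.7 CPM in the control libraries and 240.5, 246.6 and 255.6 CPM in the inhibitor libraries. Control library 1 was the highest, and the groups did not overlap. Uhrf1 fell by 0.48 ± 0.06 on the log2 scale, from 344.5 ± 25.8 to 247.6 ± 7.56 CPM (edgeR adjusted p = 1.72e-05).

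Hells, the remodeller also called LSH (chromosome 19, 38930262 to 38970470), had 98.7, 114.5 and 115.8 CPM in the control and 94.5, 88.4 and 95.5 CPM in the inhibitor libraries. The groups did not overlap, although control library 1 lay nearer to the inhibitor libraries than to the other controls. Group means were 109.7 ± 9.52 and 92.8 ± 3.87 CPM, with a log2 change of -0.24 ± 0.07 (edgeR adjusted p = 0.0108). Hells did not pass the threshold without control library 3 (-0.20, adjusted p = 0.0646) or without inhibitor library 2 (-0.21, adjusted p = 0.067, range over its alternatives 9.5e-07 to 0.067).

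Uhrf2, which resembles UHRF1 in domains but does not replace it in copying methylation (chromosome 19, 30030430 to 30093726), moved the other way. It had 76.1, 87.1 and 85.3 CPM in the control libraries and 102.8, 96.9 and 105.5 CPM in the inhibitor libraries. The groups did not overlap, and control library 1 was lowest. Group means were 82.8 ± 5.88 and 101.7 ± 4.41 CPM, with a log2 change of 0.30 ± 0.07 (edgeR adjusted p = 0.00217).

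The ratio of the paralogues shows their opposite changes within each library. The ratio of Uhrf1 to Uhrf2, each per length and within a library, was 5.07, 3.84 and 4.08 in the control and 2.42, 2.63 and 2.50 in the inhibitor libraries. This ratio does not depend on the scaling of libraries. It was chosen after the values were seen and is given without a test.

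Of the de novo methyltransferases, Dnmt3b (chromosome 2, 153649411 to 153687730) fell and Dnmt3a (chromosome 12, 3801559 to 3914443) did not pass. Dnmt3b had 39.4, 34.0 and 37.3 CPM in the control libraries and 29.6, 29.3 and 27.9 CPM in the inhibitor libraries, with no overlap. Its log2 change was -0.35 ± 0.08 (edgeR adjusted p = 0.0037). Without control libraries 1 and 3 together, which an earlier look at these data had set apart, the change was -0.23 and did not pass (edgeR adjusted p = 0.11, range over its alternatives 0.000931 to 0.11). That fit sets 1 control library against 3 inhibitor libraries, which alone supply the spread, and assumes that the lone control varies like them.

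Dnmt3a, whose loss is a frequent event in clonal blood growth, had 115.0, 113.1 and 114.3 CPM in the control and 108.8, 114.2 and 112.2 CPM in the inhibitor libraries. The groups overlapped, and the log2 change was -0.03 ± 0.05 (edgeR adjusted p = 0.683). The ratio of Dnmt3a to Dnmt3b per length was 1.34, 1.52 and 1.40 in the control and 1.68, 1.78 and 1.84 in the inhibitor libraries, again a description chosen after the values were seen. The deposited counts join 3 RefSeq transcripts of Dnmt3a and 9 of Dnmt3b, so isoforms could not be told apart.

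The TET genes did not pass the test without the length correction. Tet3 (chromosome 6, 83362373 to 83457208) had 225.9, 219.2 and 241.1 CPM in the control and 226.2, 244.3 and 222.5 CPM in the inhibitor libraries. The groups overlapped, and the log2 change was 0.01 ± 0.06 (edgeR adjusted p = 0.866). Its sign depended on the setting: it was -0.01 without control library 2, -0.03 without inhibitor library 2, and negative after the length correction given below.

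Tet2 (chromosome 3, 133463677 to 133545136), the TET gene most often mutated in blood cancers, had 117.6, 130.6 and 146.8 CPM in the control and 134.5, 132.5 and 117.0 CPM in the inhibitor libraries. Its spread was wide in both groups, and its extremes were control library 3 and inhibitor library 3. The log2 change was -0.04 ± 0.08 (edgeR adjusted p = 0.711), or 0.05 without control library 3 and 0.02 without inhibitor library 3.

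Tet1 (chromosome 10, 62804570 to 62887469), the TET gene best known from embryonic stem cells, was scarce, with 171, 189 and 176 counts in the control and 160, 131 and 99 in the inhibitor libraries. In CPM these were 8.59, 9.45 and 8.27 against 8.22, 7.65 and 5.85. The groups did not overlap, with a gap between control library 3 and inhibitor library 1 that was small beside the spread. The log2 change of -0.27 ± 0.15 did not pass (edgeR adjusted p = 0.158), and it was -0.14 without inhibitor library 3, the lowest.

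Tdg, the glycosylase that removes oxidised methylcytosine and mismatched thymine (chromosome 10, 82629814 to 82650799), had 119.5, 111.6 and 115.5 CPM in the control and 107.2, 99.6 and 110.3 CPM in the inhibitor libraries. The groups did not overlap, but the log2 change of -0.13 ± 0.06 did not pass (edgeR adjusted p = 0.0972). RefSeq names the copies Tdg-ps and Tdg-ps2 and an overlap with Glt8d2, so some reads of Tdg may be shared. Likewise Dnmt3a overlaps Dnmt3aos and Tet3 overlaps B230319C09Rik, both noncoding, Dnmt3a and Dnmt3b have the pseudogenes Dnmt3a-ps1 and Dnmt3b-ps1, and the strand of counting is not given in the sources used here.

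In all, the inhibitor libraries lay wholly below the controls for 6 of the 10 genes and wholly above for 1. Among all tested genes these shares were 26.5% and 25.9%, together 52.4%.

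**Figure D2:**
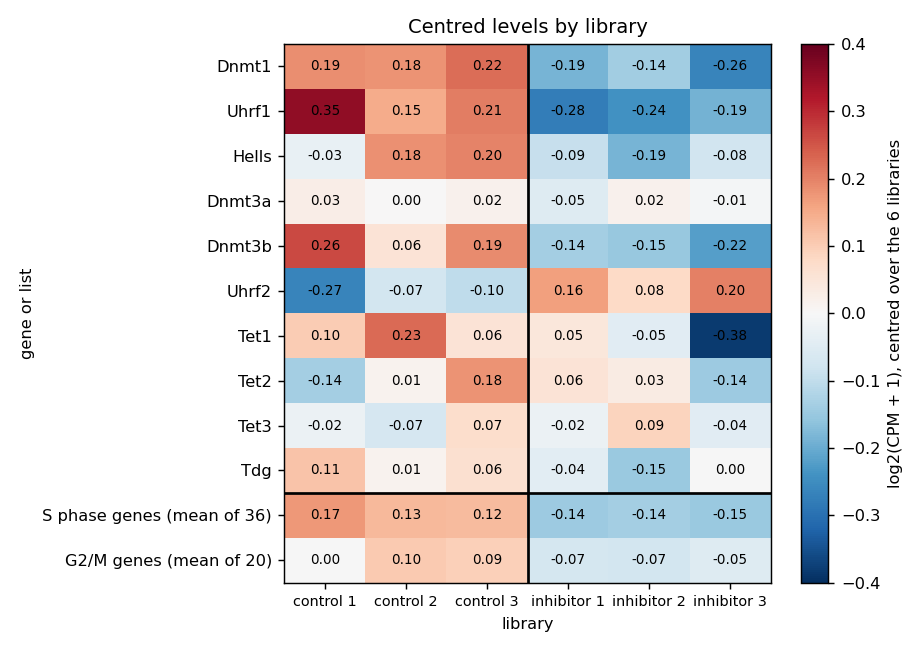
Level of each gene, and the mean level of the S phase and G2/M gene lists (rows), in each of the 6 libraries (columns), as log2(CPM + 1) centred over the libraries; red is above and blue below the mean. Dnmt1, Uhrf1 and the S phase list are positive in all 3 control libraries and negative in all 3 inhibitor libraries, while Dnmt3a stays between -0.05 and 0.03.

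Genes of DNA replication moved beside Dnmt1, Uhrf1 and Hells. For this list and each list below, the shares over all tested genes were 20.1% lower and 20.4% higher. Of 36 S phase genes tested, 28 were lower and 0 higher, with a median log2 change of -0.28, and 0 were higher at an unadjusted p of 0.05, in DESeq2 or in limma-voom. Cdc6, which loads the replicative helicase, fell by 0.59 ± 0.06 on the log2 scale, the uracil glycosylase gene Ung by 0.77 ± 0.09, and the helicase subunit gene Mcm3 by 0.39 ± 0.05 (edgeR adjusted p = 2.38e-06, 7.53e-06 and 3.36e-05). Averaged over the list, log2(CPM + 1) centred per gene was 0.17, 0.13 and 0.12 in the controls and -0.14, -0.14 and -0.15 with inhibitor. On the same scale Dnmt1 was at 0.19, 0.18 and 0.22 and then -0.19, -0.14 and -0.26, and Hells at -0.03, 0.18 and 0.20 and then -0.09, -0.19 and -0.08. The part of a smaller share of cells in S phase in the change of Dnmt1, Uhrf1 and Hells was not tested.

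Of 20 G2/M genes, 9 were lower and 0 higher (0 higher also at an unadjusted p of 0.05, in DESeq2 and in limma-voom), with a median of -0.12. Aurkb (-0.39 ± 0.06), Bub1b (-0.38 ± 0.06) and Plk1 (-0.33 ± 0.06), which encode kinases of mitosis, fell (edgeR adjusted p = 7.9e-05, 7.91e-05 and 0.000457). Without control library 1, 14 of the 20 were lower.

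The partners that act with UHRF1 and DNMT1 at the fork followed the same direction. Of 14 tested, 8 were lower and 0 higher (0 higher also at an unadjusted p of 0.05, in DESeq2 and in limma-voom), with a median of -0.22. Cdca7, which encodes the activating partner of HELLS, averaged 186.2 ± 0.99 CPM in the control and 135.8 ± 1.34 CPM in the inhibitor group, a log2 change of -0.46 ± 0.05 (edgeR adjusted p = 5.08e-06). Chaf1a, a subunit of the histone chaperone that follows the fork, fell by 0.39 ± 0.06 on the log2 scale (edgeR adjusted p = 0.000202), and Cbx5, a heterochromatin protein gene, by 0.34 ± 0.06 (edgeR adjusted p = 0.000234). The list shares 3 of its genes, Chaf1a among them, with the S phase list. All 3 are among its 8 lower genes, so these calls are counted in both lists.

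Histone methyltransferases and repressors that work with the DNMTs rarely passed the test. Of 20 tested, 1 was lower and 0 higher, with a median near 0 (-0.01), while 5 were higher and 2 lower at an unadjusted p of 0.05. DESeq2 called 0 in either direction and limma-voom 1 lower. Suv39h1, a histone methyltransferase of heterochromatin, was the gene that fell (-0.15 ± 0.06, edgeR adjusted p = 0.044), and without any 1 of control libraries 2 and 3 or of the inhibitor libraries 0 were lower. Without control library 1, 4 were lower and 1 higher, and without control library 2 or 3, 3 and 2 were higher. Of 14 readers of CpG sites, 2 were higher and 2 lower (1 higher without inhibitor library 2 and 1 lower without inhibitor library 3). Among all tested genes, 20.4% were higher and 20.1% lower. Zbtb4, a reader of methylated DNA, rose by 0.63 ± 0.11 and Kmt2a, a histone methyltransferase that binds unmethylated CpG, by 0.27 ± 0.08 (edgeR adjusted p = 0.000393 and 0.0126), and Mbd6 (-0.37 ± 0.08) and Mbd1 (-0.19 ± 0.05) fell (edgeR adjusted p = 0.0014 and 0.0124).

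Of 13 TET partners and cofactor enzymes tested, 4 were lower and 2 higher, where 20.1% and 20.4% of all tested genes were, with a median of -0.04. Idh2 (-0.35 ± 0.05) and Idh1 (-0.36 ± 0.06), whose enzymes make the 2-oxoglutarate that TETs consume, fell, as did Dcaf1, a ubiquitin ligase adaptor (-0.29 ± 0.07) (edgeR adjusted p = 9.87e-05, 0.000138 and 0.00585). Cxxc5, which binds TET2, rose by 0.42 ± 0.07, and Ogt, the glycosyltransferase bound by TETs, by 0.22 ± 0.07 (edgeR adjusted p = 0.000227 and 0.0246). Without any 1 inhibitor library, 1 of these genes was higher.

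Among 19 base excision and active demethylation genes tested, 8 were lower and 3 higher, against 20.1% and 20.4% of all tested genes. The median log2 change was -0.18. This list shares Ung with the S phase list. Ung, Apex1, the abasic site nuclease (-0.43 ± 0.06), and Parp1, a sensor of strand breaks (-0.30 ± 0.06), fell (edgeR adjusted p = 7.53e-06, 6.61e-05 and 0.000548). Gadd45g, a stress gene of growth arrest, rose from 5.82 ± 0.74 to 14.9 ± 0.85 CPM (edgeR adjusted p = 8.34e-07), and Gadd45a (0.45 ± 0.11) and Polb (0.26 ± 0.10), the gap-filling polymerase, also rose (edgeR adjusted p = 0.00589 and 0.0468). Without control library 3 or inhibitor library 1, 5 of the 19 were lower.

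Of 18 enzymes that supply the methyl donor, 7 were lower and 2 higher, against 20.1% and 20.4% of all tested genes. The median log2 change was -0.12. The folate enzyme genes Mthfd1l (-0.41 ± 0.06), Shmt1 (-0.54 ± 0.09) and Mthfd1 (-0.37 ± 0.07) fell (edgeR adjusted p = 5.31e-05, 0.000178 and 0.00051). Amd1, which draws the methyl donor into polyamine synthesis, rose by 0.79 ± 0.05 and Ahcyl2, related to the enzyme that clears its product, by 0.32 ± 0.07 (edgeR adjusted p = 1.44e-08 and 0.00221).

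Imprinted and germline genes were examined as transcripts, since methylation itself was not measured. Imprinted genes are expressed from the allele of a given parent, and methylation of an imprint silences some of them and is needed for the expression of others, such as Igf2r and Cdkn1c. Of 31 imprinted genes, 16 were tested, and 9 rose while 1 fell (median 0.26). Among all tested genes, 20.4% were higher and 20.1% lower. Igf2r, a lysosomal sorting receptor, rose from 18.0 ± 0.54 to 47.9 ± 1.13 CPM, Peg10 from 42.9 ± 3.31 to 83.2 ± 2.41 and the cell cycle inhibitor gene Cdkn1c from 5.76 ± 0.76 to 13.1 ± 2.01 (edgeR adjusted p = 1.59e-09, 3.19e-08 and 1.5e-05). Plagl1, a zinc finger gene, fell from 3.57 ± 0.50 to 1.08 ± 0.45 CPM (edgeR adjusted p = 0.00023), and 2 genes were lower without control library 1. Of 24 germline genes that promoter methylation silences, 6 passed the filter on low counts, and the rest were too low to test. Dpep3 (0.64 to 1.32 CPM) and Sycp3 (0.31 to 0.71 CPM) were higher in edgeR (adjusted p = 0.0298 and 0.0486) and 0 were lower, also at an unadjusted p of 0.05 and in limma-voom. DESeq2 called 0 in either direction, and 0 or 1 were higher without any 1 library. A gene that passes the filter through its higher group is bound to differ, so these counts support nothing about the list.

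**Figure D3:**
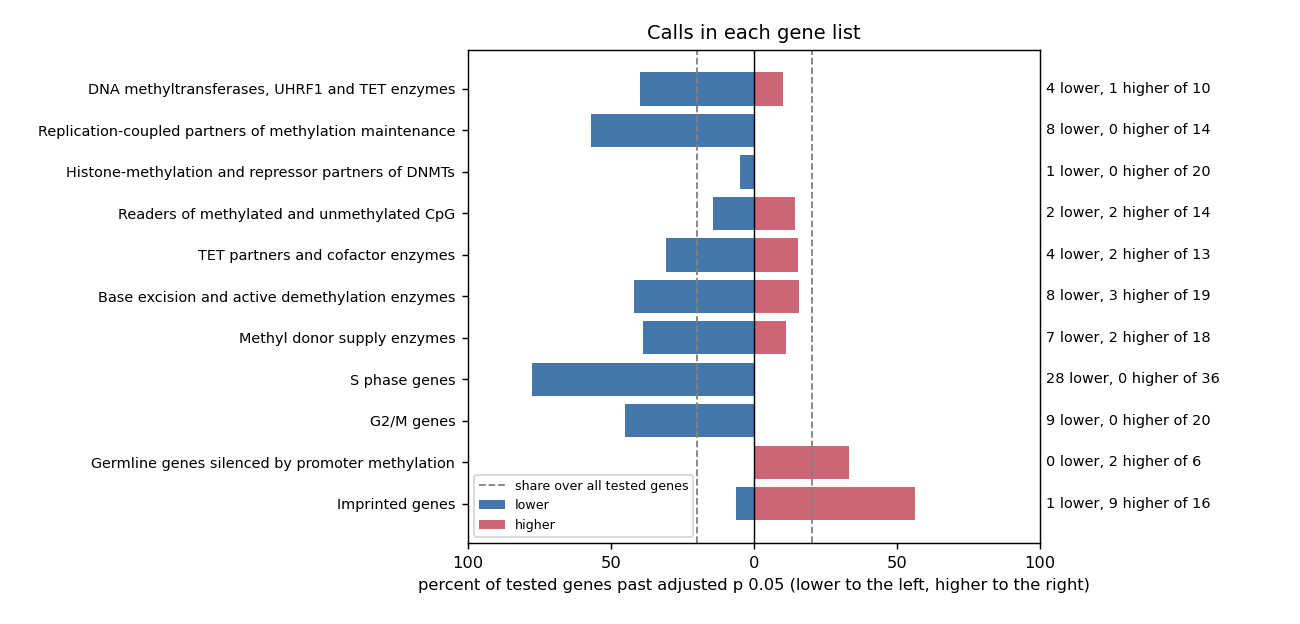
Percent of the tested genes of each list that passed an adjusted p of 0.05 (x axis), lower to the left and higher to the right, with the counts written beside the bars; dashed lines mark the shares over all tested genes, 20.1% lower and 20.4% higher. The S phase genes (28 of 36 lower) and the replication-coupled partners (8 of 14 lower) extend furthest to the left, and the imprinted genes (9 of 16 higher) furthest to the right.

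Transcript length moved with the changes across all genes and bears on the long members. The median log2 change was -0.06 over 6977 tested genes with a longest transcript under 3000 bases, 0.03 over 4610 genes of 3000 to 6000 bases and 0.11 over 1391 genes over 6000 bases. Tet1 (14354 bases), Tet3 (10906), Tet2 (9181) and Dnmt3a (8913) are in the longest class, where 34.8% of genes were higher and 12.1% lower, and the other 6 genes are between 3000 and 6000 bases. When each library was corrected for GC content and transcript length, 9 of the 10 genes were lower and Uhrf2 was still higher. The added calls were Tet1 (-0.54), Tet2 (-0.24), Dnmt3a (-0.17), Tdg (-0.17) and Tet3 (-0.12), with edgeR adjusted p = 0.00553, 0.00264, 0.00686, 0.0146 and 0.0338. With length alone corrected, an alternative chosen after seeing the data, the same 9 genes were lower and Uhrf2 higher, against 22.4% and 20.8% of all genes (43.2% in all). With GC content alone 5 were lower, Tdg being added, and 1 higher, against 22.5% and 21.5% (44% in all). In the lists, the correction for both gave 7 lower histone-methylation partners, 4 lower readers, 14 lower G2/M genes and 3 lower imprinted genes. The directions of Dnmt1, Uhrf1, Hells, Dnmt3b and Uhrf2 were the same in every alternative run. Whether the trend with length arose in the cells or in the libraries was not tested.

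**Figure D4:**
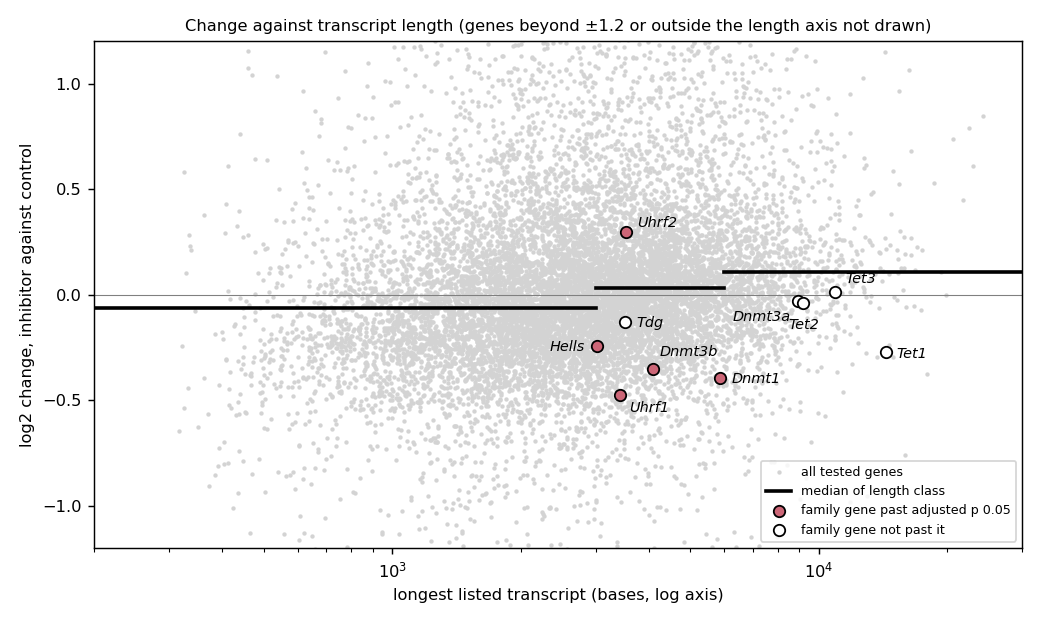
Log2 change (y axis) against the longest listed transcript in bases (x axis, log scale) for the tested genes within the axes (grey) and the 10 genes of the family (circles, filled where past an adjusted p of 0.05); black lines are the medians of 3 length classes, -0.06, 0.03 and 0.11. Dnmt3a, Tet2, Tet3 and Tet1 lie below the median of the longest class.

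**Figure D5:**
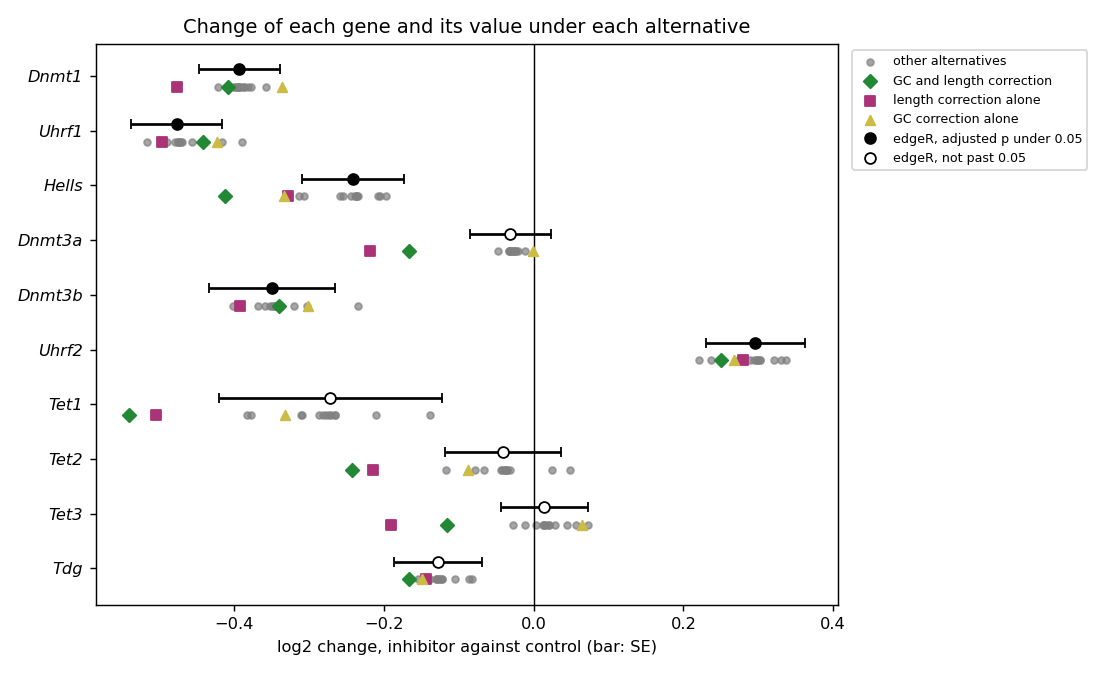
Log2 change of each gene with its SE in edgeR (upper marker, filled where past an adjusted p of 0.05) and its values under the alternatives (lower markers). Dnmt1, Uhrf1, Hells and Dnmt3b lie left of 0 and Uhrf2 right of 0 throughout, while the length correction moves Dnmt3a, Tet1, Tet2 and Tet3 to the left.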

How the data were processed

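Libraries were prepared with an mRNA kit from Trizol-extracted RNA, per the labels' protocols. The deposited files of the 6 libraries hold raw read counts per gene symbol, and RPKM that the authors computed over the longest listed transcript, per the file headers. Per the submitters' processing notes, the tools include bcl2fastq 2.20 and the genome is mm10. No aligner or counter is named (not given in the sources used here).

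Counts were filtered with filterByExpr (minimum count 10, minimum total 15) and scaled by TMM. Inhibitor and control groups were compared by the robust quasi-likelihood method of edgeR 4.0.16 under R 4.3.3, with Benjamini-Hochberg adjustment at 0.05. The SE is the size of the log2 change divided by the square root of F. RPKM served only to order genes and for ratios within a library. No libraries of a group agreed within counting noise (chi-square per degree of freedom 3.04 to 16.8), so none was treated as a repeat deposit of another; this does not show that they are separate biological samples. The method was tested on simulated data, with changed genes drawn from all tested levels. It recovered 18 of 50 genes changed 1.25-fold, 37 of 50 changed 1.5-fold, 46 of 50 changed 2-fold and 50 of 50 changed 4-fold. It also called 12 unchanged genes. Changes near 1.25-fold were thus often missed, and a gene that did not pass is not shown to be unchanged.

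The members, gene lists and tests were chosen with earlier results of these data known. Named genes are the members, up to 3 genes per pathway list and direction with the smallest p past the threshold, and the most abundant HSC markers. The other HSC markers, the overlapping genes and the ratios were chosen after their values were seen. Alternatives were RLE factors, no filter, a stricter one (at least 1 CPM in each library of either group, mean count 10), DESeq2 1.42.0, limma-voom (limma 3.58.1), the replicate block, loess corrections (span 0.4) for GC content and length from GENCODE M21, an adjusted p of 0.01, and leaving out libraries. The limit of 3 counts covers counting error only.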

Additional observations from a re-analysis of the deposited data

How the results depend on the processing

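Of the 10 genes, 4 were lower and 1 higher with RLE factors, without a filter, with the stricter filter, in DESeq2 and in limma-voom. At an adjusted p of 0.01, 3 were lower and 1 higher. Of all tested genes, 19.5% were lower and 20.8% higher with RLE factors (40.4% in all). These shares were 15.5% and 16.1% without a filter (31.7% in all), and 20.9% and 21.7% with the stricter one (42.6% in all). The correction for GC content and length gave 9 lower, as did length alone, an alternative chosen after seeing the data. The log2 changes with both corrected and with length alone were -0.17 and -0.22 for Dnmt3a, -0.54 and -0.50 for Tet1, -0.24 and -0.21 for Tet2, -0.12 and -0.19 for Tet3, and -0.17 and -0.14 for Tdg. With GC content alone, also chosen after seeing the data, Tdg was at -0.15 and passed. Dnmt3b was at -0.23 without control libraries 1 and 3 together and did not pass, in a fit of 1 control library against 3 inhibitor libraries that takes its spread from the latter alone. The cause of these differences was not tested.

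With 1 library left out, 3 or 4 of the 10 were lower and 1 higher, where 14.3 to 21.5% of all tested genes were lower and 16.6 to 21.6% higher. The log2 change then ranged from -0.313 to -0.197 for Hells, from -0.117 to 0.048 for Tet2 and from -0.028 to 0.057 for Tet3, so no direction is drawn for Tet2 or Tet3. Deviations of same-numbered libraries correlated weakly (0.06, 0.01 and 0.04), against -0.045 to 0.016 for libraries of unlike number. Such correlations cannot show whether same-numbered libraries share a batch, and no pairing was assumed. With the replicate block, 5673 of all genes passed (21.9% lower and 21.8% higher), against 5259, and the calls of the 10 genes were as before. Over all alternatives 4045 to 5954 genes passed. Tet1, with 99 to 189 counts a library, had the fewest counts and the widest SE of the 10 genes (0.15).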
